A study of Mus musculus with 6 samples.

Results

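Acp5, which encodes tartrate-resistant acid phosphatase (TRAP), 5 matrix metalloproteinase genes (Mmp9, Mmp14, Mmp12, Mmp8 and Mmp19) and 3 genes for tissue inhibitors of metalloproteinases (Timp1, Timp2 and Timp3) were followed in mouse osteoclast precursors with and without an activator of pyruvate kinase M2 (PKM2). The 9 genes were taken by symbol from a fixed list, and all 9 were found among the 23504 genes of the expression table. In all 3 DASA-58 libraries Acp5 and Mmp9 lay below all 3 DMSO libraries, at 53.2% and 59.6% of the DMSO mean. Mmp12 and Mmp8 were higher in every DASA-58 library, at 139% and 149% of the DMSO mean. The inhibitor genes Timp1 and Timp2 did not pass the test, and Timp3 was too low to be tested.

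Osteoclasts are multinucleated cells that form by fusion of macrophage-lineage precursors under M-CSF and RANKL and that dissolve bone mineral and digest its matrix. TRAP is the enzyme by which these cells are stained and counted, and osteopontin is among its substrates. Metalloproteinases are zinc enzymes that cleave collagens, elastin and other matrix proteins. They are made as inactive precursors, and TIMP proteins block their active site.

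Total RNA was sequenced from bone marrow-derived macrophages (BMMs) of C57BL/6 mice, which the study's methods give as males of 6 to 8 weeks. The 3 control libraries came from cells given DMSO and the other 3 from cells given DASA-58, a small molecule that activates PKM2, and RNA was taken after 3 days in both groups. The study's results state that the cells of both groups were induced with RANKL, whereas its methods name RANKL for the activator group alone and write the compound as DASA-48, and no concentration is given for these libraries. No source states that the libraries of a group came from separate animals or cultures, so the p-values measure the spread between these libraries, which may be technical.

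Levels are in FPKM, fragments scaled to the length of the gene and to the fragments of the library. The steps of the FPKM values gave scaling totals of 18191560 to 18968556 fragments a library, and 3 fragments on a gene of 1000 bases correspond to 0.158 to 0.165 FPKM. No libraries were duplicates of each other. Over 13201 genes the mean chi-square of a pair was 2.48 to 3.66 within a group and 11.2 to 13.8 between groups. The comparison of groups used limma on log2(FPKM + 1) and covered 10965 genes whose mean over the libraries reached 1 FPKM, with Benjamini-Hochberg adjustment over all of them and a threshold of 0.05. The added 1 makes the changes of low genes look smaller than they are. DASA-58 libraries were lower for 798 (7.28%) of these genes and higher for 465 (4.24%), 1263 (11.5%) in all, and the median log2 fold change was -0.03. Centring each library on its median changed that balance to 504 lower and 597 higher genes. In 3667 genes (33.4%) the libraries of the groups did not overlap.

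The cells were checked against markers of the types the cultures could hold. All 10 macrophage markers were tested, with summed levels of 17383 to 18289 FPKM (DMSO) and 18533 to 20899 FPKM (DASA-58). Most of these sums was Lyz2, with means of 15156 FPKM (DMSO) and 16826 FPKM (DASA-58). Lyz2 overlapped between groups and did not pass (adjusted p = 0.11, limma). Cd68, Adgre1, Mrc1, Mertk and C1qa were higher and Cd14 was lower. Of 8 osteoclast markers, 7 were tested and all 7 were lower, with a median log2 fold change of -0.87 and summed levels of 283 to 296 FPKM with DMSO and 151 to 158 FPKM with DASA-58. Calcr, the calcitonin receptor gene, was below the limit for testing with 43 to 48 fragments with DMSO and 13 to 19 with DASA-58. Of 10 neutrophil markers tested, S100a8, S100a9, Ngp and Camp were lower and Csf3r was higher, with summed levels of 186 to 189 FPKM and 152 to 156 FPKM. The defining neutrophil marker Ly6g had 0 or 1 fragment in every library. None of the 3 stromal markers tested passed, and their list summed to 35.2 to 37.5 FPKM with DMSO and 35.8 to 36.8 FPKM with DASA-58. Endothelial and lymphocyte markers summed to at most 0.714 FPKM and 0.388 FPKM. These are bulk libraries, so fewer cells of a type and less RNA per cell cannot be told apart.

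Of the 9 genes, 8 passed the filter. With DASA-58, Acp5, Mmp9 and Mmp14 were lower, Mmp12 and Mmp8 were higher and Mmp19, Timp1 and Timp2 did not pass. Thus 5 of 8 were called, against 11.5% of all genes tested, with 3 of 8 lower against 7.28% and 2 of 8 higher against 4.24%. In 6 of the 8 the groups were apart without overlap, against 33.4% of all genes tested. Their median log2 fold change was 0.08. The 9 genes were not chosen independently of these data, so these shares are a description.

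**Figure D1:**
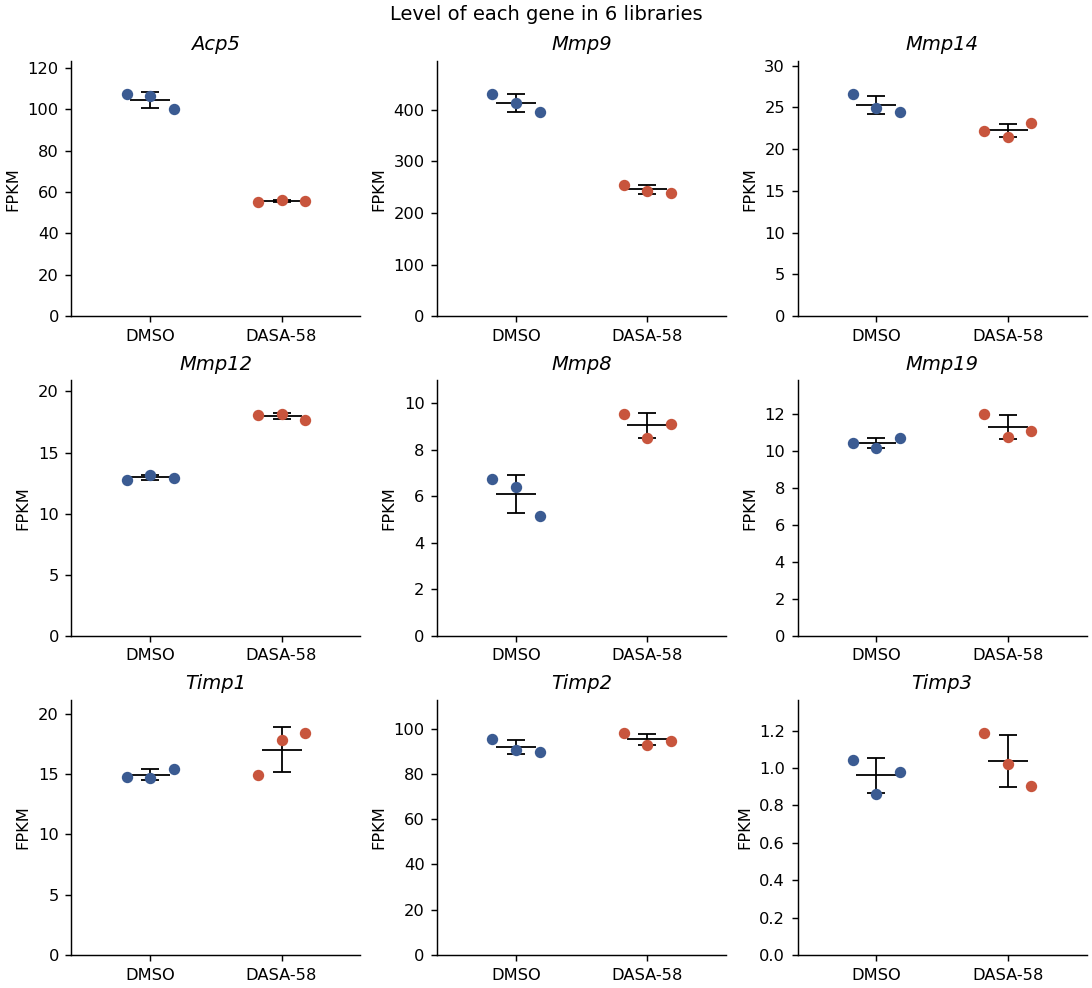
FPKM of the 9 genes, each in a panel with an axis from 0, with a point for each of the 6 libraries, a line for each group mean and bars of 1 SD. Acp5 and Mmp9 show the wide downward gap between groups, Mmp12 and Mmp8 the upward one, and the Timp genes overlap.

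Acp5 (ENSMUSG00000001348) lies on the minus strand of chromosome 9, at chr9:22126727-22135711 in GRCm38. Its level was 107, 107 and 100.2 FPKM in the DMSO libraries and 55.3, 55.9 and 55.7 FPKM in the DASA-58 libraries. The DMSO libraries were all far above the DASA-58 libraries, which lay close together. The means were 105 ± 3.83 and 55.6 ± 0.320 FPKM (SD, n = 3), from 3705 to 4076 and 2066 to 2143 fragments. The log2 fold change was -0.90 (SE 0.032, 95% interval -0.97 to -0.82, adjusted p = 8.27e-06, limma). Acp5 ranked 13 from the lowest of the 10965 genes tested. An exact two-sided permutation test of 3 against 3 libraries gave p = 0.1, the smallest that this design allows.

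Acp5 was also read against the other acid phosphatase genes. Of 7 genes in that list, 6 were analysable and 4 were tested, with a list median of -0.03. Acp5 alone was lower and none was higher, against 7.28% lower and 4.24% higher of all genes tested. Acp2, the lysosomal acid phosphatase gene, had 41.3 ± 0.948 and 43.7 ± 0.287 FPKM with DMSO and DASA-58 (log2 fold change 0.08, adjusted p = 0.13, limma). For Acp1, a low molecular weight phosphatase, the log2 fold change was 0.05 (adjusted p = 0.33, limma), and for Acp6 it was -0.11 (adjusted p = 0.23, limma). Acp3, the gene of prostatic acid phosphatase, was just under the filter with 139 to 155 fragments with DMSO and 109 to 139 with DASA-58. Osteopontin, the TRAP substrate encoded by Spp1, measured 295, 287 and 278 FPKM with DMSO and 229, 238 and 240 FPKM with DASA-58. It was lower with DASA-58, with a log2 fold change of -0.28 (SE 0.031, adjusted p = 0.0017, limma).

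RefSeq gives 3 transcription starts for Acp5 on GRCm38.p6. A window of 250 bases before to 50 after each start was searched on both strands for AP-1 (TGACTCA), NFAT (TGGAAA), PU.1 (GAGGAA) and the E-boxes CATGTG and CACGTG, which are motifs of factor families known from osteoclast and macrophage genes. AP-1 occurs in 5.20% of all 32851 such windows, NFAT in 21.4%, PU.1 in 28.3%, CATGTG in 14.2% and CACGTG in 7.15%, and 57.0% hold at least 1 of them. The NFAT and PU.1 letters both contain GGAA, but a single GGAA cannot serve both. Only the third Acp5 start, inside the annotated gene, held a match. The 250 bases before it, chr9:22130599-22130848 on the minus strand, are shown because Acp5 had the lowest log2 fold change of the 9 genes. Capitals mark an NFAT match that begins 117 bases before the start and a CATGTG match 90 bases before it, both read on the opposite strand.
Acp5, the third start: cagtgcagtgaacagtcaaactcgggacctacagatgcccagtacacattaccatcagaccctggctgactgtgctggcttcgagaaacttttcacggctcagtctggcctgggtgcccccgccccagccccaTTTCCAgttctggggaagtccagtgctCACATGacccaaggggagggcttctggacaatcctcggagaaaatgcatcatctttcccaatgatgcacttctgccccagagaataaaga
A match is a description of letters and not evidence of a bound factor.

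Mmp9 (ENSMUSG00000017737), at chr2:164940780-164955850 on the plus strand, encodes gelatinase B, which degrades denatured collagen and is abundant in osteoclasts. Its level was 430.0, 412 and 395 FPKM with DMSO and 254, 244 and 239 FPKM with DASA-58. The groups were separated by more than 100 FPKM. The means were 412 ± 17.5 and 246 ± 7.94 FPKM (SD, n = 3), from 25451 to 27922 and 15678 to 16954 fragments, the deepest counts among the 9 genes. On the log2 scale the change was -0.74 (SE 0.038, 95% interval -0.83 to -0.66, adjusted p = 5.19e-05, limma), rank 29 from the lowest of 10965, with an exact permutation p of 0.1. Mmp9 was also the highest of the 9 genes, at rank 136 by level of all 23504 genes.

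The genes whose centred pattern over the 6 libraries was most like that of Acp5 were Ctsk, Jdp2 and Itgb3. Their root mean square differences from Acp5 on the log2(FPKM + 1) scale were 0.034, 0.054 and 0.055, against a median of 0.443 for the 10964 other genes tested. Ctsk encodes cathepsin K, the collagen-digesting protease of osteoclasts, and had 210 ± 6.26 and 110 ± 3.28 FPKM with DMSO and DASA-58. Jdp2 encodes an AP-1 family repressor and Itgb3 the integrin beta 3 chain. For Mmp9 the nearest genes were Sdc1, Slc9b2 and Ccr1, with differences of 0.018, 0.055 and 0.061 against a median of 0.369. Sdc1 encodes the proteoglycan syndecan 1 and had 40.1 ± 1.39 and 23.9 ± 0.482 FPKM with DMSO and DASA-58. Slc9b2 encodes a sodium/proton exchanger and Ccr1 a chemokine receptor. Acp5 and Mmp9 themselves were 0.084 apart. The nearest genes were picked for their small distances, so lying below the median follows from the choice. These distances describe 6 libraries that share their 2 treatments.

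Mmp14 (ENSMUSG00000000957), at chr14:54431612-54445364, encodes the membrane-anchored metalloproteinase MT1-MMP, which cleaves collagen at the cell surface and activates the MMP2 precursor. Its level was 26.6, 24.9 and 24.5 FPKM with DMSO and 22.2, 21.5 and 23.1 FPKM with DASA-58. The groups did not overlap, but the highest DASA-58 library lay close under the lowest DMSO library. The means were 25.3 ± 1.09 and 22.3 ± 0.801 FPKM (SD, n = 3), which puts DASA-58 at 87.9% of DMSO. The change on the log2 scale was -0.18 (SE 0.043, 95% interval -0.28 to -0.08, adjusted p = 0.035, limma). This call was the least firm of the 5, since it was kept in 6 of 18 alternative settings. The adjusted p was 0.066 after median centring and 0.103 and 0.065 on leaving out DMSO replicate 1 or DMSO replicate 2. On leaving out DASA-58 replicate 1, 2 or 3 it was 0.096, 0.108 and 0.056 (limma).

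**Figure D2:**
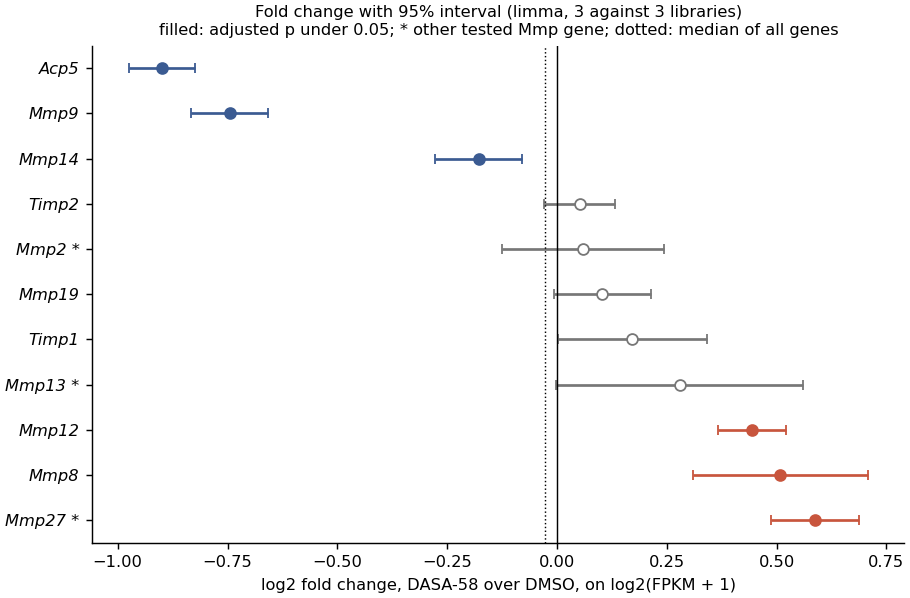
Log2 fold change of FPKM + 1 (DASA-58 against DMSO) with its 95% interval from limma for the tested genes among the 9 and for the other tested Mmp genes, which carry an asterisk. Filled points have an adjusted p under 0.05 and the dotted line is the median of all genes tested, -0.03, so the points run from Acp5 at -0.90 to Mmp27 at 0.59.

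Mmp12 and Mmp8 moved in the opposite direction to Acp5 and Mmp9. Mmp12 (ENSMUSG00000049723), at chr9:7344381-7369499 on the plus strand, encodes macrophage elastase. Its level was 12.8, 13.2 and 12.9 FPKM with DMSO and 18.1, 18.2 and 17.7 FPKM with DASA-58. The libraries of each group lay within 1 FPKM of each other and the groups were far apart. The means were 13.0 ± 0.209 and 17.98 ± 0.271 FPKM (SD, n = 3), from 1695 to 1798 and 2393 to 2466 fragments. The log2 fold change was 0.44 (SE 0.033, 95% interval 0.37 to 0.52, adjusted p = 2.96e-04, limma), and the exact permutation p was 0.1.

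Mmp8 (ENSMUSG00000005800), at chr9:7558456-7568485 on the plus strand, encodes the collagenase best known from neutrophil granules. Its level was 6.72, 6.39 and 5.16 FPKM with DMSO and 9.55, 8.50 and 9.09 FPKM with DASA-58. All DASA-58 libraries were above all DMSO libraries, of which replicate 3 was the lowest. The means were 6.09 ± 0.820 and 9.05 ± 0.525 FPKM (SD, n = 3), from 228 to 299 and 375 to 436 fragments. This gave a log2 fold change of 0.51 (SE 0.086, 95% interval 0.31 to 0.71, adjusted p = 0.0097, limma). Without the filter on low values the adjusted p was 0.055, and without variance shrinkage it was 0.091. Of the 10 neutrophil markers tested, 4 were lower and 1, Csf3r, was higher in the DASA-58 libraries. The other 3 markers of that list were too low to test, and the defining marker Ly6g had 0 to 1 fragments with DMSO and 0 with DASA-58. The part of neutrophil cells in the Mmp8 value was not tested.

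Mmp12 and Mmp8 were the genes called higher among the 9, so the stretches before their RefSeq starts are shown for comparison with each other. They are chr9:7344147-7344396 and chr9:7347124-7347373 for the first and second Mmp12 starts and chr9:7558179-7558428 for Mmp8, all on the plus strand of GRCm38.p6. Capitals mark a PU.1 match that begins 86 bases before the first Mmp12 start, a CATGTG match 83 bases and an AP-1 match 44 bases before the second, and a PU.1 match 219 bases before the Mmp8 start, each on the opposite strand.
Mmp12, the first start: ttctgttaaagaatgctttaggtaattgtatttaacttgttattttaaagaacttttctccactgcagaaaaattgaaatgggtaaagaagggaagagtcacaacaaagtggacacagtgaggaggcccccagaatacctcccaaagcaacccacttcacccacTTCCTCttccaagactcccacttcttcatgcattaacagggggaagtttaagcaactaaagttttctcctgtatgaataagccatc
Mmp12, the second start: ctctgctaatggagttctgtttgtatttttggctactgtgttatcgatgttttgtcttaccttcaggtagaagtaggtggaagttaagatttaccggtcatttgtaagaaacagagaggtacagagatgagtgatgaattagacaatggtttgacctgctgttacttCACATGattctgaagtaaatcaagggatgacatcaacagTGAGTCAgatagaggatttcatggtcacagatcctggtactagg
Mmp8: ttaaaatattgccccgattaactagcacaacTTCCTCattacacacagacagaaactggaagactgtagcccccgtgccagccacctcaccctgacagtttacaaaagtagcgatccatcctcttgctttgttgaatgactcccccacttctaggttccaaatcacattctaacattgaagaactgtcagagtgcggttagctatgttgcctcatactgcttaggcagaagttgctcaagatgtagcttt
The first Mmp12 window and the Mmp8 window shared the PU.1 letters, at different distances. Of the 9 genes, 7 had promoter entries, 10 windows in all, and no match was found in those of Mmp14, Timp1, Timp2 and Timp3 or in the first and second windows of Acp5.

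Mmp12 and Mmp8 belong to a cluster of 10 Mmp genes in the annotation, which spans 427.1 kb of chromosome 9 from 7272514 to 7699585 in the order Mmp13, Mmp12, Mmp1b, Mmp3, Mmp1a, Mmp10, Mmp8, Mmp27, Mmp20 and Mmp7. Values for 6 of them were analysed, 4 were tested, 3 were higher and none was lower, against 4.24% higher and 7.28% lower of all genes tested. The cluster was read because Mmp12 and Mmp8 lie in it, and both are among the 3 higher genes. The count is therefore a description and not a test of the cluster. Mmp27, which lies next to Mmp8 and encodes a little-studied member of the family, had 4.59, 4.49 and 4.67 FPKM with DMSO and 7.19, 7.64 and 7.35 FPKM with DASA-58. Its log2 fold change of 0.59 (SE 0.043, adjusted p = 2.87e-04, limma) was above those of Mmp12 and Mmp8. Mmp13, the collagenase gene at the start of the cluster, had 58 to 73 fragments with DMSO and 72 to 115 with DASA-58. Its means were 1.34 ± 0.131 and 1.86 ± 0.473 FPKM, which puts DASA-58 at 139% of DMSO, and the groups overlapped. Its log2 fold change of 0.28 (SE 0.12, adjusted p = 0.18, limma) did not pass. At this level the added 1 makes that fold change smaller. Mmp3 and Mmp10 had 0 to 2 fragments in each library. Of the 4 Mmp genes tested outside the cluster, none was higher and 2, Mmp9 and Mmp14, were lower, and the difference between genes inside and outside the cluster was not tested.

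Of 4 genes read beside the cluster, 3 were tested, and none of these was called higher with DASA-58. Dcun1d5, before Mmp13, had a log2 fold change of 0.08 (adjusted p = 0.35, limma), and Tmem123, after Mmp7, had -0.05 (adjusted p = 0.56, limma). Birc2, the next gene beyond Tmem123, was lower at -0.19 (SE 0.048, adjusted p = 0.044, limma). Dync2h1, before Dcun1d5, was too low to test, with 96 to 127 fragments with DMSO and 110 to 114 with DASA-58. The difference between the cluster and its flanks was not tested. The Mmp12 gene shares 157 exon bases with Mmp1b on the opposite strand, and with the use of strand not stated, reads there cannot be assigned to either gene.

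**Figure D3:**
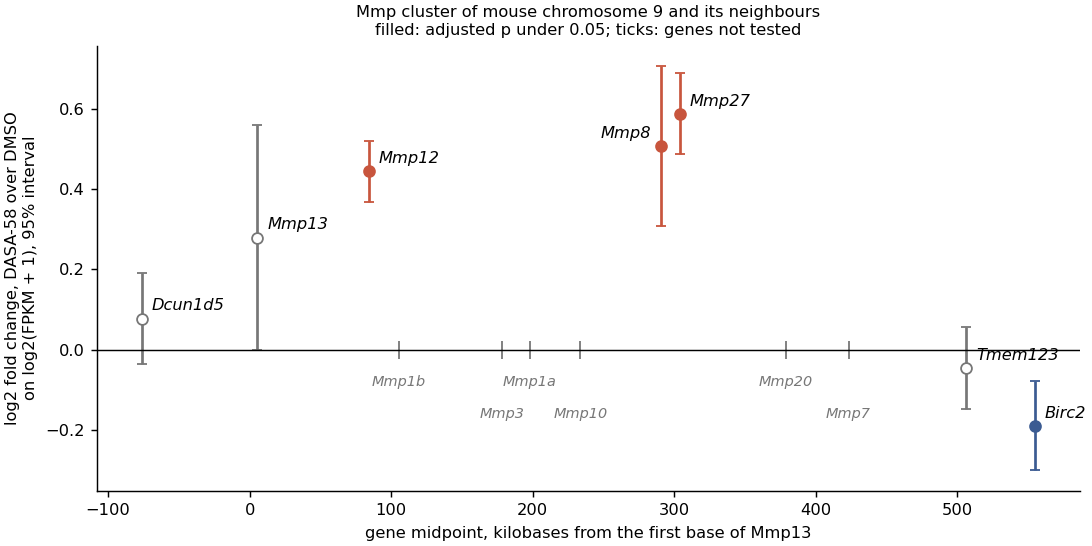
Log2 fold change of FPKM + 1 (DASA-58 against DMSO) with its 95% interval for the tested genes of the chromosome 9 Mmp cluster and its flanks, plotted by distance in kb from the first base of Mmp13, with filled points for an adjusted p under 0.05 and ticks for genes not tested. Mmp12, Mmp8 and Mmp27 lie between 0.44 and 0.59, whereas the flanking genes lie between -0.19 and 0.08.

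Mmp19 (ENSMUSG00000025355), at chr10:128790910-128800824, encodes a secreted metalloproteinase found in many tissues. Its level was 10.4, 10.2 and 10.7 FPKM with DMSO and 11.996, 10.7 and 11.1 FPKM with DASA-58. The groups met at 10.7 FPKM without overlapping. The log2 fold change was 0.10 (SE 0.048, 95% interval -0.01 to 0.21, adjusted p = 0.21, limma), so no change was called, and a rise of up to 0.21 lies within the interval. Mmp19 shares 789 exon bases with Tmem198b on the opposite strand, a gene with a mean of 1.44 FPKM, and reads there cannot be assigned to either gene.

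The family as a whole was read from a list of 23 Mmp genes, of which 18 were analysable and 8 were tested. Of these, 2 were lower, 3 were higher and 3 did not pass, against 7.28% lower and 4.24% higher of the 10965 genes in the fit. The list's median was 0.19 on the log2 scale, beside -0.03 for all genes tested. Mmp2, the gelatinase A gene, had 2.74 ± 0.214 and 2.90 ± 0.337 FPKM (log2 fold change 0.06, adjusted p = 0.68, limma). The summed level of the 18 Mmp genes was 497, 477 and 458 FPKM with DMSO and 330.0, 317 and 314 FPKM with DASA-58. The sum was therefore lower in all DASA-58 libraries, with means of 477 ± 19.6 and 320.2 ± 8.67 FPKM (exact permutation p = 0.1).

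Mmp9 carried most of that sum. Its share was 86.4% ± 0.120 with DMSO and 76.7% ± 0.459 with DASA-58 (SD, n = 3, exact permutation p = 0.1). The Mmp genes other than Mmp9 summed to 65.0 ± 2.097 FPKM with DMSO and to 74.5 ± 1.08 FPKM with DASA-58, without overlap between groups, although p = 0.1 in the exact permutation test cannot pass 0.05. The share of Mmp12 was 2.72% with DMSO and 5.62% with DASA-58, that of Mmp8 was 1.27% and 2.82%, and that of Mmp14 was 5.31% and 6.96%. The share of Mmp14 was thus higher while its own level was lower, since the shares are parts of a sum dominated by Mmp9.

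**Figure D4:**
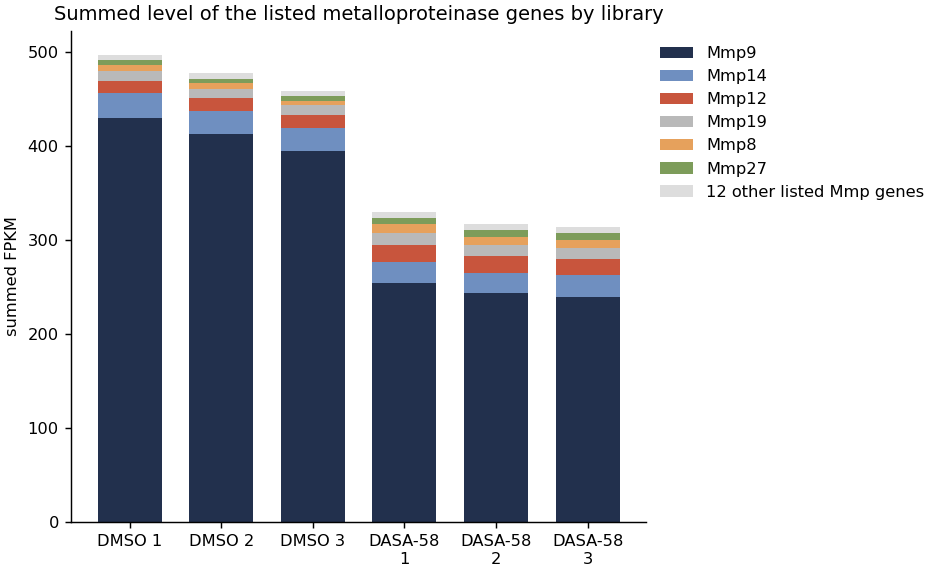
Summed FPKM of the 18 analysable Mmp genes in each of the 6 libraries, as bars from 0 divided by gene. The Mmp9 segment makes up 86.4% of the sum on average with DMSO and 76.7% with DASA-58, and the remaining segments together are larger with DASA-58.

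Timp1 (ENSMUSG00000001131), at chrX:20870166-20874735, encodes a secreted inhibitor that also binds the MMP9 precursor. Its level was 14.7, 14.7 and 15.5 FPKM with DMSO and 14.9, 17.8 and 18.4 FPKM with DASA-58. The first DASA-58 library lay among the DMSO libraries and the other two lay above them. The means were 14.96 ± 0.433 and 17.0 ± 1.88 FPKM (SD, n = 3), and the log2 fold change was 0.17 (SE 0.073, 95% interval 0.00 to 0.34, adjusted p = 0.17, limma, exact permutation p = 0.2). Without DASA-58 replicate 1 the log2 fold change was 0.26 and passed the test (adjusted p = 0.019, limma), so that library decided the call. The gene was covered by 240 to 310 fragments.

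Timp2 (ENSMUSG00000017466), at chr11:118301069-118355740, encodes the inhibitor that binds MT1-MMP and the MMP2 precursor. Its level was 95.6, 90.6 and 89.6 FPKM with DMSO and 98.1, 93.0 and 94.8 FPKM with DASA-58. The groups overlapped. On the log2 scale the difference was 0.05 (SE 0.035, 95% interval -0.03 to 0.13, adjusted p = 0.39, limma, exact permutation p = 0.3). With 6354 to 7196 fragments this is a precise value, and its interval reaches 0.13 at most.

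Timp3 (ENSMUSG00000020044), at chr10:86300372-86349506, encodes the inhibitor that stays bound to matrix and also blocks ADAM17. It had 1.04, 0.860 and 0.978 FPKM with DMSO and 1.19, 1.02 and 0.906 FPKM with DASA-58, overlapping between groups, with a mean just under the limit for testing. In a fit without that limit the log2 fold change was 0.05 (95% interval -0.14 to 0.25, adjusted p = 0.79, limma). Timp3 shares 1733 exon bases with Syn3 on the opposite strand, whose mean was 0.0175 FPKM. The 3 Timp genes summed to 108 ± 3.05 and 113 ± 1.34 FPKM with DMSO and DASA-58 (exact permutation p = 0.1). The groups nearly met, with the highest DMSO library at 111.4 FPKM and the lowest DASA-58 library at 111.8 FPKM. Other scalings between libraries were not tried for this sum. Timp2 made up 85.2% and 84.0% of the sum. Of 7 inhibitor genes fixed in the list, 5 were analysable and Timp1 and Timp2 were tested, with a median of 0.11. Reck had 8 to 15 fragments and Tfpi2 1 to 10 fragments in each library.

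Within each library, Mmp9 was set against Timp1 and Mmp14 against Timp2, since each ratio joins a protease with the inhibitor known to bind it and does not depend on the scaling between libraries. The ratio of Mmp9 to Timp1 was 29.2, 28.1 and 25.5 with DMSO and 17.1, 13.7 and 13.0 with DASA-58. All DASA-58 ratios were lower. The mean log2 ratio was 4.78 ± 0.099 with DMSO and 3.86 ± 0.21 with DASA-58, a difference of -0.93 (exact permutation p = 0.1, the smallest possible). The ratio of Mmp14 to Timp2 was 0.278, 0.275 and 0.274 with DMSO and 0.227, 0.231 and 0.244 with DASA-58. It was also lower in all DASA-58 libraries, with mean log2 ratios of -1.86 ± 0.012 and -2.097 ± 0.054 and a difference of -0.24 (exact permutation p = 0.1). These are ratios of transcripts, and neither protein nor enzyme activity was measured in these libraries. The ratios combine log2 fold changes given above, -0.74 for Mmp9, 0.17 for Timp1, -0.18 for Mmp14 and 0.05 for Timp2. Timp1 and Timp2 did not pass and each overlapped between groups.

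**Figure D5:**
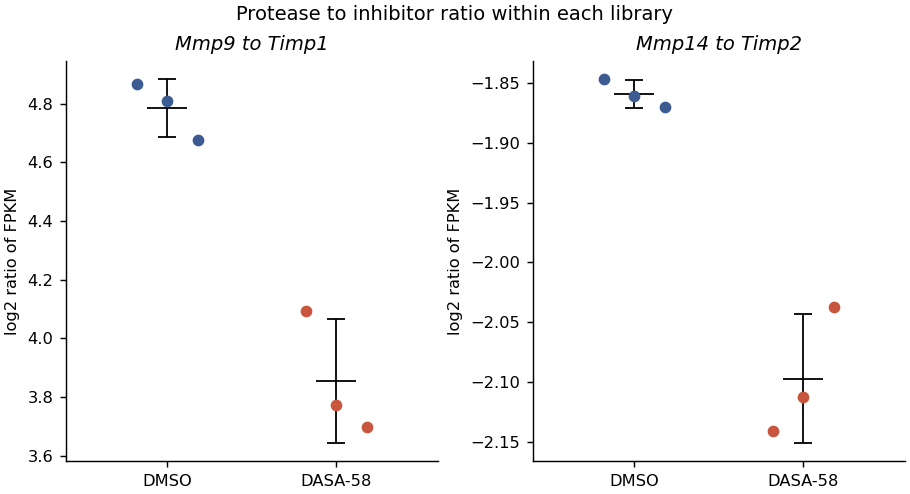
Log2 ratio of Mmp9 to Timp1 FPKM and of Mmp14 to Timp2 FPKM, a point for each library, a line for each group mean and bars of 1 SD, on axes that do not start at 0. The DASA-58 points are at 3.70 to 4.09 and -2.14 to -2.04, all under the DMSO points at 4.67 to 4.87 and -1.87 to -1.85.

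The order of the 9 genes by level was Mmp9, Acp5, Timp2, Mmp14, Timp1, Mmp12, Mmp19, Mmp8 and Timp3 with DMSO, and no neighbours in that order overlapped in their libraries. With DASA-58, Acp5 and Timp2 changed places, so that Timp2 at 93.0 to 98.1 FPKM stood above Acp5 at 55.3 to 55.9 FPKM. Mmp12 at 17.7 to 18.2 FPKM and Timp1 at 14.9 to 18.4 FPKM then overlapped and could not be ordered.

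Genes that activate, dock or clear metalloproteinases were also read as a list. Of 12 in the list, 10 were tested, 1 was lower, 1 was higher and 8 did not pass. Of all genes tested, 7.28% were lower and 4.24% higher. The list's median log2 fold change was 0.01, beside -0.03 for all genes tested. The gene called lower was Spp1, given above. The urokinase gene Plau had a log2 fold change of 0.17 (adjusted p = 0.14, limma) and its receptor gene Plaur 0.12 (adjusted p = 0.19, limma). Furin, which cleaves the MT1-MMP precursor, had -0.11 (adjusted p = 0.12, limma).

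Of 15 ADAM and ADAMTS genes, which encode related zinc proteases, 13 were analysable and 6 were tested. None passed, against 11.5% called of all genes tested, and their median log2 fold change was 0.04. Adam8, which is expressed in osteoclasts and macrophages, was among the more abundant of these, with 272 ± 3.56 FPKM (DMSO) and 268 ± 12.3 FPKM (DASA-58, adjusted p = 0.76, limma). Adam17, the sheddase of TNF, had 48.4 ± 1.07 and 47.9 ± 0.833 FPKM (adjusted p = 0.80, limma).

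Marker groups moved beside the genes described here. Acp5 and Mmp9 were lower in the same libraries in which all 7 osteoclast markers tested were lower, against 7.28% of all genes tested. The median log2 fold change of these markers was -0.87. Mmp12 and Mmp8 were higher in the libraries in which 5 of 10 macrophage markers were higher, against 4.24% of all genes tested. Of the other macrophage markers, Cd14 was lower and 4 did not pass, and the list median was 0.17. Of the 10 neutrophil markers tested, 4 were lower, 1 was higher and 5 did not pass. The part of the mix of cell types in these values was not tested.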

How the data were processed

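RNA-seq of 6 libraries, 3 with DMSO and 3 with DASA-58, was analysed from 1 table of FPKM values that the authors deposited. The submitters' processing notes name HISAT2 2.1.0, HTSeq 0.6.0 and the build mm8, with no role. The annotation and the use of strand are not given in the sources used here. The gene lengths behind the FPKM were those of GENCODE mouse release 21 on GRCm38: with them 21367 genes (90.9%), including 8 of the 9 described, were whole fragments in every library within 0.02 fragments, which gave the scaling totals. All positions given are those of GRCm38. Mmp14 needed a fitted length of 5887 bases against 5960 annotated. Of the identifiers, 23455 had a symbol and 49 had none.

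Groups were taken from the treatment labels. The table was fitted with limma 3.58.1 (R 4.3.3) on log2(FPKM + 1), with a mean of at least 1 FPKM, lmFit and eBayes with a trend. Exact permutation tests used SciPy 1.17.1. Fold changes are DASA-58 over DMSO. Fragments were used for precision, for distances between libraries and in a voom alternative. Intervals cover the spread between libraries. Promoter windows came from RefSeq on GRCm38.p6.

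The members and lists were chosen with earlier results of these data known. Text names were fixed by rule: the 9 genes, every called gene of the lists of metalloproteinases, inhibitors, acid phosphatases, activation, docking and clearance genes, and ADAM and ADAMTS genes, the Mmp cluster with its neighbours, and the 3 genes nearest to Acp5 and Mmp9 in pattern. Other list genes and the flanking genes Birc2 and Dync2h1 were named after their values were seen. The 1 higher gene of the activation, docking and clearance list is not reported here. Alternatives changed the pseudocount, filter, scaling, variance model, replicate block and libraries.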

Additional observations from a re-analysis of the deposited data

How the results depend on the processing

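Acp5, Mmp9, Mmp12, Mmp27 and Spp1 kept their direction and call in all 18 alternatives of the fit. No log2 fold change of the tested genes among the 9 or of the called list genes changed sign. The protease to inhibitor ratios also kept their sign in the alternatives run for them. The fold changes of other genes, such as Mmp2, Mmp13, Acp2 and Birc2, were not followed through the alternatives. The log2 fold change of Acp5 ranged from -0.93 to -0.85, that of Mmp9 from -0.78 to -0.71 and that of Mmp12 from 0.36 to 0.47. Mmp8 was called in 16 of 18, and the number of higher genes among the 9 was 1 in place of 2 without the filter on low values and without variance shrinkage, and 3 without DASA-58 replicate 1, through Timp1. The number of lower genes among the 9 was 2 in place of 3 in 12 of 18 alternatives, through Mmp14. The number of lower Mmp genes was 1 in place of 2 after median centring, quantile normalization and TMM, and without the filter, the trend or variance shrinkage, each time through the loss of Mmp14, and 1 to 2 when a library was left out. The number of higher inhibitors was 0 to 1 when a library was left out, and 1 without DASA-58 replicate 1, through Timp1. Among activation, docking and clearance genes, voom weights gave 2 lower and 2 higher genes, no filter and no shrinkage gave 0 higher, and leaving out a library gave 0 to 2 higher. Same-numbered libraries did not deviate together (correlations -0.016 to 0.016, and 0 libraries correlated best with their own number), so no pairing was seen. This cannot show whether they share an animal or a culture, which no source states. With the replicate block 579 genes were lower and 378 higher, lower Mmp genes were 1 in place of 2, and the adjusted p of Mmp14 was 0.063 (limma). Over all genes the counts lower and higher were 504 and 597 with median centring, 499 and 598 with TMM, 588 and 600 with quantile normalization, 958 and 386 with equal totals, 515 and 341 without trend, 314 and 227 without shrinkage, 372 and 257 without the filter and 1309 and 727 with voom, and leaving out a library gave 385 to 604 lower and 273 to 373 higher. Where no cause is named for a change, the cause was not tested. Genes under 1 FPKM, such as Timp3, are limited by their fragments.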

Other observations

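Some genes of the lists lay below the limit for testing and were picked out after their values were seen, so they are given as fragments with no test. Adamts4, which encodes an aggrecan-cleaving protease, was covered by 11 to 19 fragments with DMSO and 2 to 3 with DASA-58. Mmp11, the stromelysin 3 gene, had 18 to 21 fragments with DMSO and 25 to 44 with DASA-58. Mmp17, which encodes a membrane-anchored metalloproteinase, had 3 to 7 and 8 to 15 fragments. Plat, the tissue plasminogen activator gene, had 4 to 7 and 8 to 12 fragments. The libraries of the groups did not overlap in FPKM for any of these 4 genes, as in 33.4% of the genes that were tested.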
